A study of Mus musculus with 60 samples.

Results

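Repsox is a small molecule that blocks the kinase of ALK5, the type I TGFb receptor encoded by Tgfbr1. Its effect on gene expression was followed in fibroblasts deficient in Ercc1 by comparing 3 RNA libraries of cells given Repsox with 3 libraries of untreated control cells. These 6 libraries, taken by their labels, belong to an inhibitor table of 24 libraries within a series of 60. Tail tip fibroblasts are connective tissue cells grown from the tip of the tail. All 6 libraries came from cells with the genotype Ercc1(d/-), which carry a truncated and a null allele of Ercc1, a subunit of a DNA repair endonuclease, and serve as a model of accelerated aging. The donor mouse was female, aged 4 weeks, on a mixed C57BL6J and FVB background and were grown with 10% fetal bovine serum in 3% oxygen for 3 passages or fewer, without reprogramming factors. Repsox was applied for 3 days at 0.1 µM, the dose given for the methylation samples taken with this RNA. Vactosertib, a second ALK5 inhibitor that is also described as blocking ALK2, was applied to the same cells at the same dose and for the same time, in 3 libraries, and is used below as the matched comparison. Wild type fibroblasts, WT control, from a mouse of 14 weeks, and Ercc1 cells given DMH-1 or A83-01 complete the 18 libraries of the fit, so that they share its estimate of the spread and the mean to which libraries are compared. The question was how blocking ALK5 alters the transcriptome of cells with a DNA repair defect. A single Ercc1 line was labelled with 1 age and 1 sex and nothing says that the replicates came from separate animals, so that p-values measure the spread between these libraries only.

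TGFb ligands bind the type II receptor TGFBR2, which activates ALK5. ALK5 then phosphorylates Smad2 and Smad3, and these enter the nucleus with Smad4 and raise genes of the extracellular matrix and of feedback control. Bone morphogenetic proteins (BMPs) use other type I receptors, such as ALK2 and ALK3, and act through Smad1, Smad5 and Smad9, whose classic targets are the Id genes. In fibroblasts the TGFb arm is best known for driving collagen production, wound contraction and fibrosis.

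Levels are given in CPM, the counts of a gene divided by the size of its library, after scaling by the trimmed mean of M values (TMM), and changes as log2 fold changes of Repsox minus control with their standard error (SE). A gene is called, or said to rise or fall, where edgeR's quasi-likelihood test gave an adjusted p-value under 0.05. The 6 libraries held between 17102639 and 26706181 counts. Repsox replicate 2 stood apart from its group. The tested genes were split by exon length into 5 classes, of which the genes with a mean log2 CPM over 3 were read, 1246 in the shortest class to 2274 in the longest. Relative to the mean of the 18 fitted libraries, the shortest class of that library lay at 0.49 and the longest at -0.38 on the log2 scale, whereas replicates 1 and 3 lay at -0.21 and -0.26 for the shortest class and at 0.14 and 0.15 for the longest. Ribosomal protein genes took 6.66% of its counts, against 3.39% and 3.22% in the other two. Mitochondrial transcripts took 0.91%, 0.69% and 0.51% of the counts in control cells and 1.21%, 1.13% and 1.45% with Repsox, without overlap, and their part in the results was not tested. Repsox replicates 1 and 3 differed with 5.48 times the variance that counting alone gives, and pairs with replicate 2 with 163 and 176 times. Control replicates 2 and 3 differed with 4.26 times that variance, and pairs with control replicate 1 with 25.4 and 27.1 times. Where a gene is described by value and its call was lost without Repsox replicate 2 or another library, the adjusted p-value without that library is given.

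**Figure D1:**
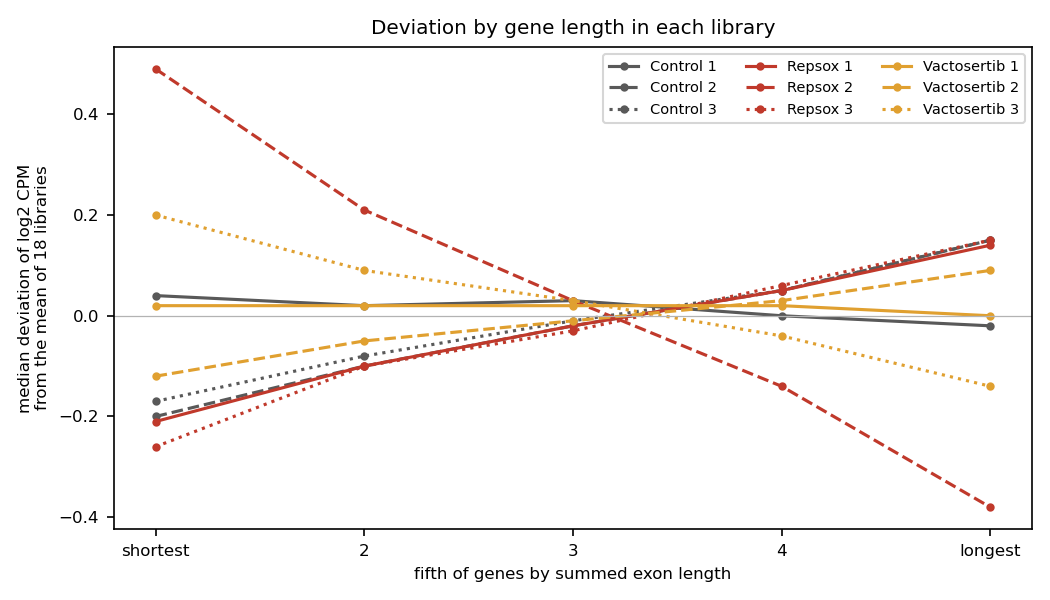
Median deviation of log2 CPM from the mean of 18 libraries (vertical axis) for genes with a mean log2 CPM over 3 in 5 classes ordered by summed exon length (horizontal axis), with a line for each control, Repsox and Vactosertib library. Repsox replicate 2 runs from 0.49 to -0.38, opposite in slope to Repsox replicates 1 and 3.

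Ercc1, the gene that is mutated in these cells (chr7:19078703-19090449, plus strand, GRCm39), stood at 21.6, 21.4 and 22.1 CPM in control cells and at 18, 20.8 and 18.1 CPM with Repsox. The difference was not called (log2 fold change -0.19, SE 0.158, adjusted p = 0.424), and the gene overlaps Polr1g on the opposite strand, whose reads cannot be told apart where strand was not counted. The wild type mean was 18.8 ± 4.45 CPM (SD, n = 3), so the mean level of Ercc1 RNA was not lower in the mutant control cells, and a count over the whole gene does not check the genotype label. Among 15164 genes tested, 2025 (13.4%) rose with Repsox and 1795 (11.8%) fell, 3820 (25.2%) in all. Of the called genes, 3699 had no overlap between the 3 control and the 3 Repsox values, and among all genes tested 2759 (18.2%) lay higher and 2766 (18.2%) lower without overlap. The median log2 fold change of all genes tested was 0.02, 826 rises and 582 falls reached a log2 fold change of 1 or -1, and without Repsox replicate 2 the counts were 2090 and 1799. These shares are the background against which every count of list members below is read. In RNA from whole cultures, fewer cells of a type and less RNA per cell cannot be told apart.

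Among called genes with a mean of at least 5 CPM and no overlap between groups, the largest rises were in Ncald, Gdpd2, Ptprq, Rab3b, Sfrp2, Clic5, Olfm2 and Kcnk3, with log2 fold changes from 3.75 to 4.40. Sfrp2, a secreted modulator of Wnt signaling, stood at 22.0, 25.6 and 27.8 CPM in control cells and at 406, 430 and 379 CPM with Repsox, a 16.1-fold rise (SE 0.128 on the log2 scale, adjusted p = 4.06e-12). Ncald, a neuronal calcium sensor, went from 1.83, 0.923 and 1.87 CPM to 32.5, 37.2 and 28.3 CPM, and Rab3b, a small GTPase of regulated secretion, from 2.59, 2.46 and 3.37 CPM to 38.5, 53.4 and 44.4 CPM. All of the 8 genes were below 4 CPM in each control library apart from Sfrp2. By the same limits the largest falls were in Mmp13, Kcnj15, Ppbp, Kcne3, Pcsk5, Cmah, Adcy7 and Spp1, with log2 fold changes from -6.03 to -3.23. Spp1, the matrix protein and cytokine osteopontin, stood at 1050, 958 and 840 CPM in control cells and at 79.4, 129 and 94.6 CPM with Repsox, a 9.40-fold fall. Ppbp, a chemokine, went from 22.4, 21.6 and 16.5 CPM to 1.24, 1.56 and 1.66 CPM, and Pcsk5, a proprotein convertase, from 54.5, 67.1 and 64.3 CPM to 6.08, 3.74 and 5.64 CPM. Both groups of genes therefore contained ion channel genes, with the potassium channel Kcnk3 higher and Kcnj15 and Kcne3 lower.

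**Figure D2:**
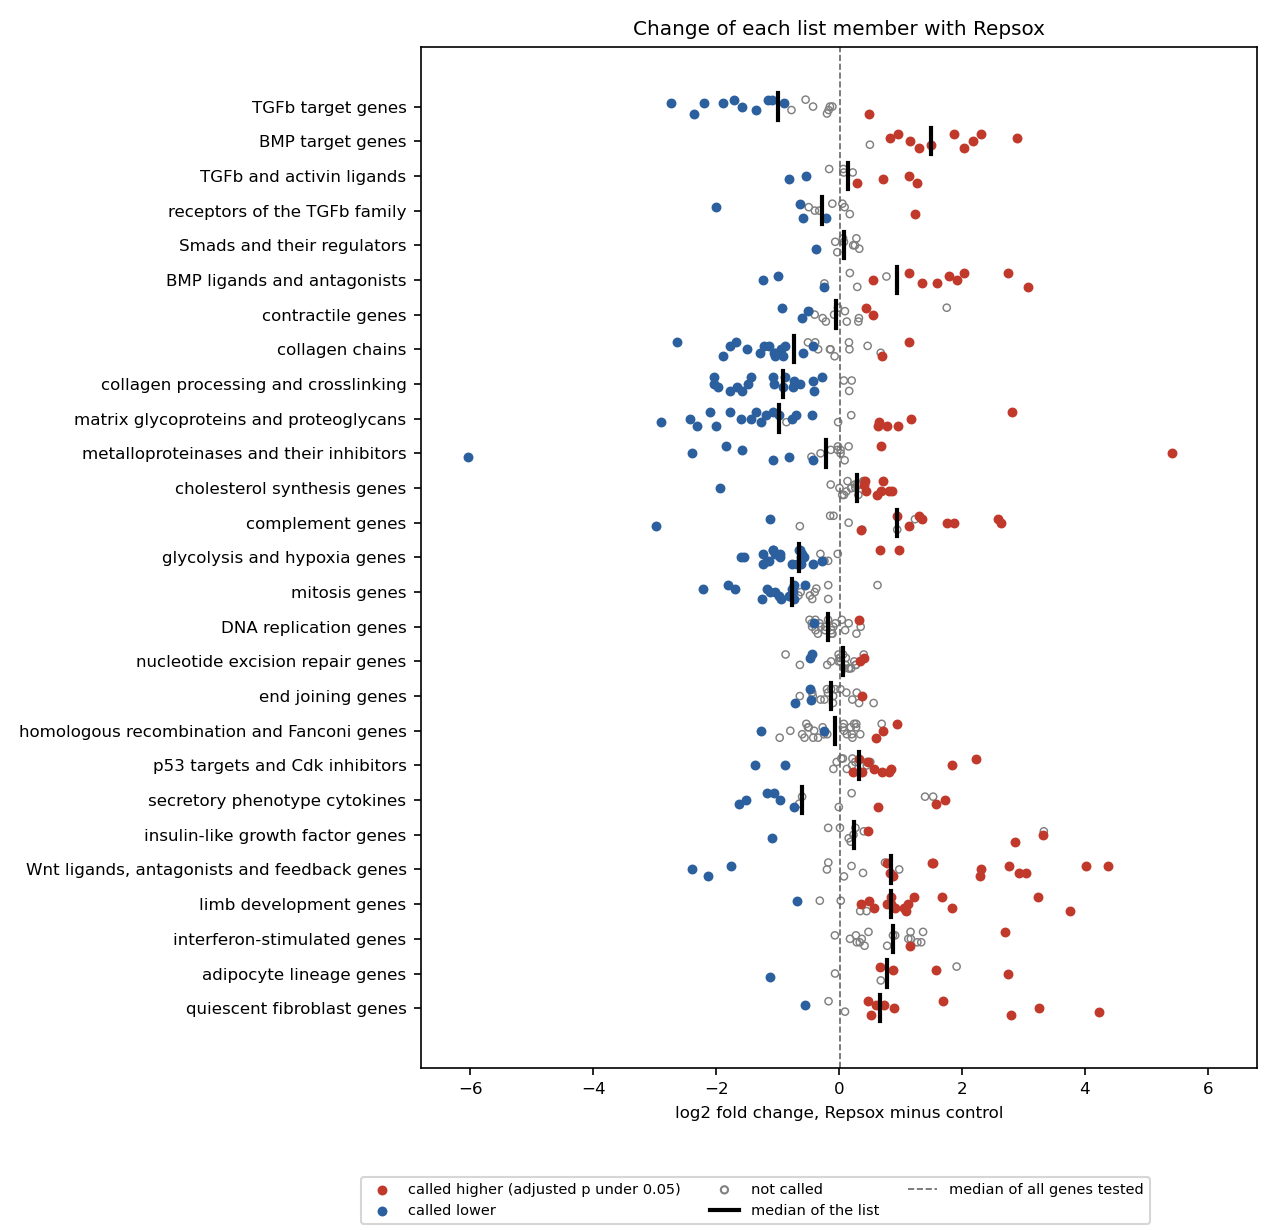
Log2 fold change of Repsox minus control (horizontal axis) for each tested member of 27 gene lists (rows), with called rises in red, called falls in blue, uncalled genes as open circles, list medians as bars and the median of all genes as a dashed line. Genes without a count in a group are drawn at the bound set by 3 counts. BMP targets lie to the right (median 1.5) and TGFb targets and the matrix lists to the left (medians from -1 to -0.73).

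Genes that TGFb is known to induce mostly fell. Of 18 TGFb targets tested, 10 fell and 1 rose, with a median log2 fold change of -1 against 0.02 over all genes. Tgfbi, a secreted adhesion protein named for its induction by TGFb, stood at 102, 117 and 111 CPM in control cells and at 16.3, 15.5 and 18.1 CPM with Repsox (log2 fold change -2.73, SE 0.123, adjusted p = 1.03e-10). Every Repsox library was more than 80 CPM below every control library. Postn, the matricellular protein periostin, went from 2610, 3310 and 2980 CPM to 700, 464 and 573 CPM, a 5.12-fold fall. Ccn2, the connective tissue growth factor, went from 735, 702 and 633 CPM to 227, 267 and 198 CPM. The groups were also apart for the feedback inhibitors, since Pmepa1, which traps receptor Smads, went from 364, 363 and 355 CPM to 143, 134 and 148 CPM and Skil, a Smad corepressor, from 48.6, 48.2 and 45.0 CPM to 12.1, 7.99 and 10.7 CPM. Bhlhe40, Spsb1, Ltbp2 and Adam12 fell between 1.86-fold and 3.69-fold. Snai2, a transcription factor of mesenchymal cells, was the member that rose, from 89.2, 91.1 and 76.1 CPM to 121, 124 and 116 CPM (adjusted p = 3.41e-04). The other 7 members were not called, among them the inhibitory Smad7 at 38.1, 34.7 and 32.4 CPM against 31.5, 31.3 and 32.2 CPM (adjusted p = 0.241) and Thbs1 (log2 fold change -0.11, adjusted p = 0.697).

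Targets of the BMP arm moved the other way. Of 11 tested, 10 rose and none fell, with a median log2 fold change of 1.5. Id4, an inhibitor of helix-loop-helix transcription factors, stood at 18.8, 17.2 and 18.8 CPM in control cells and at 142, 149 and 118 CPM with Repsox, a 7.45-fold rise (log2 fold change 2.90, SE 0.113, adjusted p = 1.68e-11). Id2 rose 4.12-fold and Id1 2.82-fold, with Id1 at 22.7, 19.0 and 20.0 CPM against 44.6, 85.8 and 44.0 CPM. Id3 went from 103, 98.2 and 96.2 CPM to 148, 279 and 155 CPM. For these 3 short genes Repsox replicate 2 was the highest library, and all 3 remained called without it. Atoh8, a transcription factor, rose 4.98-fold, from 28.1, 26.5 and 22.3 CPM to 120, 132 and 132 CPM. Smad6, an inhibitory Smad of the BMP arm, went from 30.6, 31 and 29.8 CPM to 72.7, 78.5 and 73.8 CPM, and Smad9, a BMP receptor Smad, from 2.68, 2.92 and 2.43 CPM to 11.0, 7.19 and 11.1 CPM. Hey1, Msx1 and Bambi were called higher, whereas Msx2 was not (adjusted p = 0.0626). Bambi, a decoy receptor, lost its call without Repsox replicate 2 (adjusted p = 0.147) or control replicates 2 or 3 (adjusted p = 0.0639 and 0.129). The median of the BMP targets was 1.27 without that library.

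**Figure D3:**
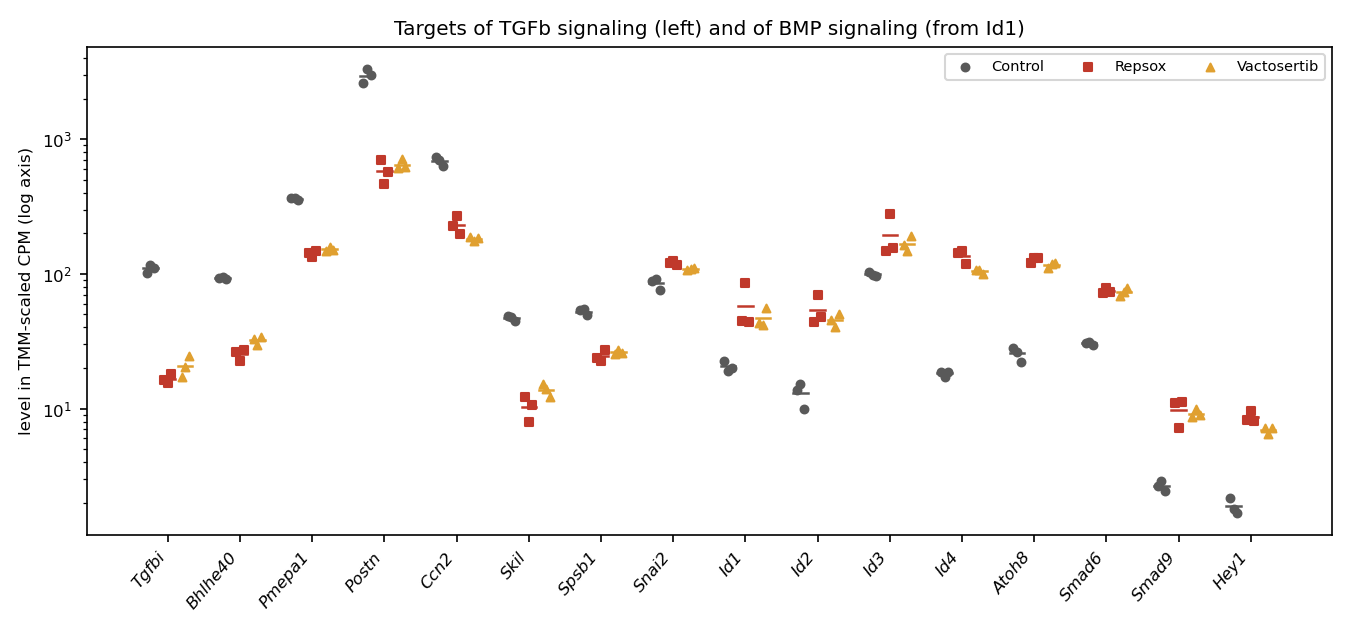
Level of 8 TGFb targets (left) and 8 BMP targets (from Id1) in TMM-scaled CPM on a log axis, with 3 control, 3 Repsox and 3 Vactosertib libraries as points and the group means as bars. Repsox points lie below the control points for Tgfbi to Spsb1 and above them for Snai2 and for Id1 to Hey1.

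The promoters of these targets were searched for letters that Smads are known to bind. The window was the 250 bases before the start of the canonical transcript in GENCODE M39 (GRCm39), read for 15130 of the 15164 genes tested, on both strands. The Smad box CAGACA was found in 2 of 10 TGFb targets that fell (20.0%), among them Skil, and in 14.3% of all tested promoters. Its palindrome GTCTAGAC was in none of the 10 and in 0.264% of all. The GC-rich BMP Smad motif GGCGCC was found in 3 of 10 BMP targets that rose (30%), Hey1, Id4 and Smad9, but also in 4 of the 10 TGFb targets that fell, and in 12.5% of all. These counts are descriptions and no test was run on them. The promoters of Skil (chr3:31148566-31148815), Id4 (chr13:48414308-48414557) and Smad9 (chr3:54662713-54662962), all on the plus strand, are printed 5′ to 3′ because they belong to target genes of the opposite directions and hold the motif of their list. Capitals mark CAGACA in Skil, which begins at position -52 from the start, and GGCGCC in Id4 and Smad9, which begins at positions -114 and -11. Skil also holds GGCGCC and Smad9 CAGACA, which are left in lower case.
Skil: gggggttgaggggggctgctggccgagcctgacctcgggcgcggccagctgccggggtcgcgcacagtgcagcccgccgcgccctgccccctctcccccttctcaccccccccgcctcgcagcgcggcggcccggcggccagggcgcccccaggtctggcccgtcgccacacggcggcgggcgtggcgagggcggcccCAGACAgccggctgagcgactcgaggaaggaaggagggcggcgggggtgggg
Id4: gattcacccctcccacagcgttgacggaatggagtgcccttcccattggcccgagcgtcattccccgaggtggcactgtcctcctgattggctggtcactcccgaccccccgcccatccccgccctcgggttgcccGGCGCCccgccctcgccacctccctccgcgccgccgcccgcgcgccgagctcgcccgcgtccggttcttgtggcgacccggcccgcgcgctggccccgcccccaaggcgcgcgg
Smad9: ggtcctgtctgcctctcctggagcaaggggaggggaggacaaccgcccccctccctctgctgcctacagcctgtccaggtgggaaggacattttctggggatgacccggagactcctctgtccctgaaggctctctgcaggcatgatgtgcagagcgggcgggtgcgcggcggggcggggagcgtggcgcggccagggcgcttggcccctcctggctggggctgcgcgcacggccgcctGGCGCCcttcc

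The receptors themselves had a smaller median change than either list of targets, a difference that was not tested. Of 12 receptors tested, 4 fell and 1 rose, with a median of -0.27 that was -0.13 without Repsox replicate 2, and Acvr1c was too low to test. Tgfbr1, which encodes ALK5, the target of Repsox, stood at 68.5, 75.8 and 70.8 CPM in control cells and at 56.4, 36.1 and 51.5 CPM with Repsox (log2 fold change -0.58, SE 0.153, adjusted p = 0.0103). All 3 Repsox values were below all control values, with replicate 2 lowest, and the call was lost when the libraries of these 2 groups alone were fitted (adjusted p = 0.0522). Tgfbr2, the type II receptor, was not called, at 461, 527 and 530 CPM against 533, 348 and 526 CPM (adjusted p = 0.668), nor were the coreceptors Tgfbr3 (adjusted p = 0.735) and Eng (adjusted p = 0.388). Per kilobase of exon, Tgfbr2 was the most abundant receptor in control cells at 61.8 CPM per kb, followed by Eng at 52.7 and Tgfbr3 at 36.9, with Tgfbr1 at 11.0. Acvr1, which encodes ALK2, went from 98.8, 105 and 99.9 CPM to 65.3, 59.8 and 70.2 CPM, a 1.56-fold fall (adjusted p = 6.78e-06). Bmpr1b, a BMP type I receptor of low level, fell 4.02-fold, from 3.53, 3.18 and 3.43 CPM to 0.88, 0.841 and 0.795 CPM. Bmpr1a, which encodes ALK3, was not called (log2 fold change 0.06, adjusted p = 0.793). The activin receptor genes Acvr1b, Acvr2a and Bmpr2, the BMP type II receptor, had log2 fold changes from -0.49 to -0.32 and were not called. Acvrl1 (log2 fold change -0.22) lost its call without Repsox replicate 2 (adjusted p = 0.0827) and without any of the 3 control libraries (adjusted p from 0.0549 to 0.075), and Acvr2b, the receptor that rose (log2 fold change 1.24), without Repsox replicate 1 or control replicates 1 or 3 (adjusted p from 0.0511 to 0.0636).

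Among the ligands of TGFb and activin and their binding proteins, 4 of 10 tested rose and 2 fell, with a median of 0.15 that ran from 0.06 without Repsox replicate 1 or 3 to 0.34 without Repsox replicate 2. Tgfb1, the ligand best known in fibrosis, stood at 96.2, 87.7 and 82.6 CPM in control cells and at 65.5, 59.3 and 59.5 CPM with Repsox, a 1.45-fold fall (adjusted p = 6.43e-04). Tgfb2 went from 11.6, 12.3 and 10.0 CPM to 21.7, 13.1 and 20.8 CPM and Tgfb3 from 136, 149 and 156 CPM to 198, 158 and 183 CPM, so that the 3 TGFb isoforms did not change in a common direction. Tgfb2 was not called when the 2 groups alone were fitted (adjusted p = 0.0666), nor Tgfb3 without control replicates 1 or 2 or Repsox replicates 1 or 3 (adjusted p from 0.0759 to 0.143). Inhbb, a subunit of activin B, rose 2.19-fold, from 331, 323 and 372 CPM to 758, 688 and 803 CPM. Ltbp1, which holds latent TGFb in the matrix, rose 2.41-fold, whereas Lrrc32, which holds it on the cell surface, fell 1.76-fold. Lrrc32 was not called without control replicate 3 (adjusted p = 0.0504). Of 9 Smads and Smad regulators tested, Tgif1, a corepressor, was the member called (log2 fold change -0.38, adjusted p = 0.0178), and its adjusted p was 0.0749 without control replicate 1 and 0.0565 without Repsox replicate 3. Smad3, at 114, 125 and 133 CPM against 172, 112 and 183 CPM, was not called with all libraries (adjusted p = 0.122) but was without Repsox replicate 2, its lowest Repsox library (log2 fold change 0.52, adjusted p = 0.00219). Smad2 (0.36, adjusted p = 0.0142) and the corepressor Ski (0.47, adjusted p = 0.0125) behaved alike, and 4 of the 9 rose in that fit.

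BMP ligands and their extracellular antagonists rose more often than they fell. Of 16 tested, 9 rose and 3 fell, with a median of 0.95. This median lay between 0.66 and 0.95 when 1 library was left out and was lower with other filters on low counts. Bmp4 stood at 6.03, 7.54 and 6.99 CPM in control cells and at 27.7, 24.3 and 25.5 CPM with Repsox, a 3.78-fold rise (SE 0.136 on the log2 scale, adjusted p = 2.31e-08). Bmp6 rose 3.00-fold, and Bmp2 went from 0.179, 0.154 and 0.25 CPM to 0.72, 0.505 and 1.16 CPM. The antagonists were the larger group among the rises. Chrdl1, which binds BMP4, went from 9.39, 12.4 and 13.4 CPM to 83.1, 66.1 and 87.4 CPM, a 6.75-fold rise. Fst, the activin antagonist follistatin, rose 3.44-fold, Nog, the antagonist noggin, 2.54-fold, and Grem1 2.19-fold. Among the antagonists that fell were Fstl3 at 2.36-fold and Chrd at 1.18-fold (adjusted p = 0.0494), which lost its call without any 1 of the 6 libraries (adjusted p from 0.0572 to 0.195). Sostdc1 had no count in control cells and 33 counts with Repsox, which is at least 8.46-fold higher against a floor of 3 counts over the group. Bmp5, Bmp7 and Gdf5 were too low to test, at 6 counts or fewer in every library.

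Extracellular matrix genes fell across collagens, their enzymes and matrix glycoproteins. Of 28 collagen chain genes tested, 16 fell and 2 rose, with a median of -0.73. Col1a1, the main chain of type I collagen and the most abundant collagen per kilobase, stood at 39100, 39000 and 42300 CPM in control cells and at 20900, 16200 and 21300 CPM with Repsox (log2 fold change -1.04, SE 0.13, adjusted p = 1.36e-05). Its level fell from 6110 to 2960 CPM per kb in the group means. Col1a2 fell 2.05-fold and Col3a1 1.92-fold. The fibril regulator Col5a1 fell more steeply, from 6230, 7220 and 7680 CPM to 2310, 1310 and 2090 CPM, and Col7a1, the anchoring fibril collagen, fell 6.25-fold, from 36.5, 43.2 and 45.6 CPM to 7.64, 5.21 and 7.15 CPM. The basement membrane chains Col4a1 and Col4a2 fell 2.08-fold and 1.89-fold, with Repsox replicate 2 the lowest library for each. Col14a1 and Col10a1 were the chains that rose, by 1.62-fold and 2.19-fold, and Col14a1 was not called when control replicate 1, Repsox replicate 1 or Repsox replicate 3 was left out (adjusted p from 0.0679 to 0.0928). Col2a1, at under 0.5 CPM throughout, lost its call without Repsox replicates 2 or 3 or control replicate 2 (adjusted p from 0.0591 to 0.0639).

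Enzymes that modify and crosslink collagen had the largest share of falls among the 27 pathway lists. Of 21 tested, 18 fell and none rose, and the same count of 18 was found without Repsox replicate 2. Plod1, a lysyl hydroxylase, stood at 994, 1080 and 1150 CPM in control cells and at 283, 219 and 283 CPM with Repsox, a 4.11-fold fall (log2 fold change -2.04, SE 0.102, adjusted p = 3.80e-10). Plod2 fell 3.91-fold, from 174, 177 and 165 CPM to 44.9, 40.7 and 46.3 CPM. The prolyl hydroxylase subunit P4ha2 fell 2.99-fold and P4ha1 1.88-fold. The lysyl oxidases, which crosslink collagen and elastin, fell as a family, since Lox went from 8840, 9550 and 9270 CPM to 5370, 4210 and 5510 CPM and Loxl1, Loxl2, Loxl3 and Loxl4 fell between 1.35-fold and 3.41-fold. Loxl3 overlaps Htra2 on the opposite strand. The procollagen proteinases Bmp1, Adamts2 and Adamts14 fell 2.08-fold, 1.66-fold and 2.69-fold, and the collagen chaperone Serpinh1 fell 1.21-fold, a call lost without control replicate 3 (adjusted p = 0.0541).

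Of 25 matrix glycoproteins and proteoglycans, 16 fell and 6 rose, with a median of -0.98. Fbln2, fibulin 2, stood at 6950, 8720 and 8470 CPM in control cells and at 1200, 775 and 1260 CPM with Repsox, a 7.46-fold fall. Aspn, the small proteoglycan asporin, fell 4.30-fold, although the gene lies opposite Cenpp. Tnc, tenascin C, went from 2230, 2890 and 2950 CPM to 1350, 665 and 1320 CPM and Vcan, versican, from 902, 1190 and 1220 CPM to 338, 138 and 355 CPM. Both are long transcripts and were lowest in Repsox replicate 2. The hyaluronan synthase Has2 went from 44.7, 45.4 and 46.8 CPM to 16.7, 16.6 and 20.5 CPM. Elastic fiber genes did not fall as a block. Eln, elastin, rose 7.04-fold, from 11.7, 13.9 and 12 CPM to 91.2, 91.6 and 81.7 CPM (adjusted p = 2.43e-09), and Fbln5, which assembles elastic fibers, rose 1.72-fold, whereas the microfibril genes Fbn1, Emilin1 and Mfap4 fell between 1.98-fold and 5.36-fold. The small leucine-rich proteoglycans were split too, since Fmod rose 2.25-fold, Ogn 1.94-fold and Dcn, decorin, 1.55-fold, whereas Bgn, biglycan, had a log2 fold change of -0.44 and lost its call without Repsox replicate 2 or control replicates 2 or 3 (adjusted p from 0.0877 to 0.116). Fbn1 was not called without control replicate 3 (adjusted p = 0.0659).

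**Figure D4:**
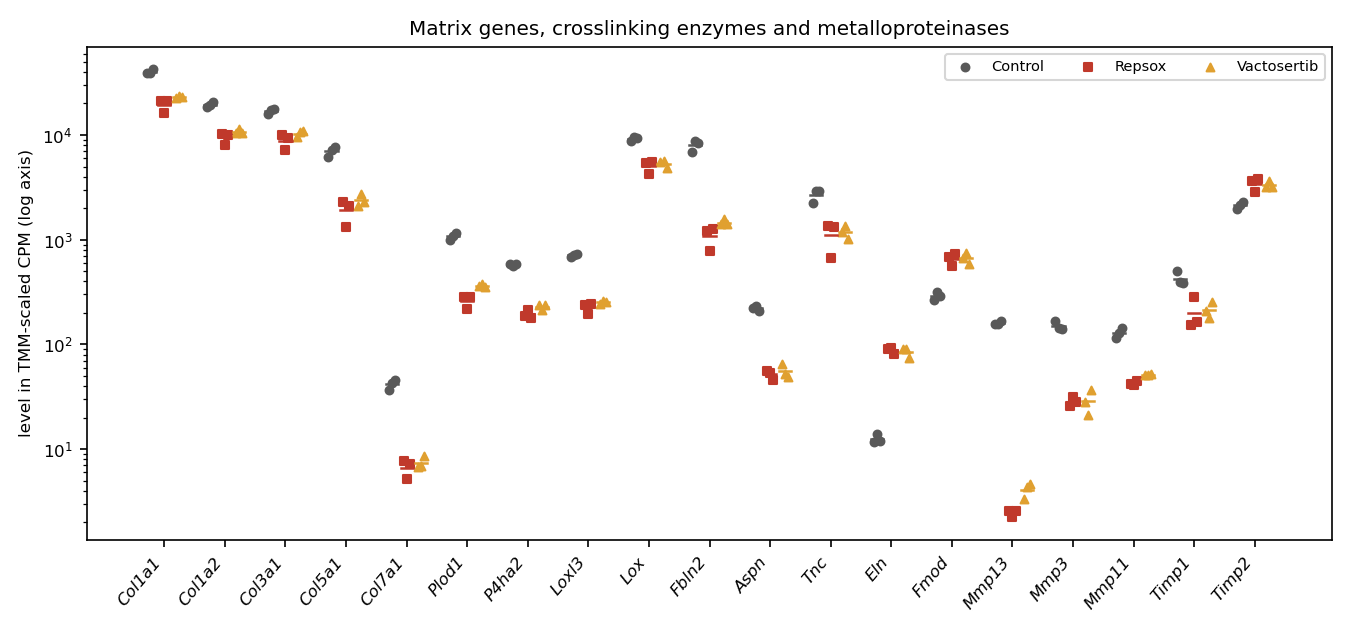
Level of collagens, collagen enzymes, matrix glycoproteins, metalloproteinases and their inhibitors in TMM-scaled CPM on a log axis, with 3 control, 3 Repsox and 3 Vactosertib libraries as points and the group means as bars. Mmp13 lies at 158 to 167 CPM in control cells and at 2.23 to 2.57 CPM with Repsox, and Eln, Fmod and Timp2 are the genes that lie higher with Repsox.

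Some metalloproteinases, which degrade matrix, fell steeply. Of 18 metalloproteinases and inhibitors tested, 7 fell, 2 rose and 9 were not called, among them the gelatinase Mmp2 (log2 fold change 0.09, adjusted p = 0.66). The median was -0.22, and it ran from -0.39 without Repsox replicate 1 to -0.11 without Repsox replicate 2, with -0.34 without control replicate 1. Mmp13, collagenase 3, stood at 158, 158 and 167 CPM in control cells and at 2.56, 2.23 and 2.57 CPM with Repsox, a 65.5-fold fall (log2 fold change -6.03, SE 0.232, adjusted p = 1.68e-11). Mmp3, stromelysin 1, went from 167, 145 and 140 CPM to 26.0, 31.4 and 28.0 CPM, and Mmp11, which overlaps Chchd10 on the opposite strand, fell 3.00-fold. Mmp19 fell 1.77-fold and the membrane enzyme Mmp14 1.33-fold. Mmp10, at under 2 CPM, lost its call without Repsox replicates 2 or 3 (adjusted p = 0.0505 and 0.0549). The inhibitors went in opposite directions. Timp1 went from 499, 391 and 384 CPM to 153, 286 and 163 CPM, whereas Timp2 rose from 1980, 2140 and 2270 CPM to 3600, 2830 and 3830 CPM. Timp4 had no count in control cells and 167 counts with Repsox, at least 42.6-fold higher against a floor of 3 counts over the group, but the gene lies opposite Syn2. The AP-1 motif TGAGTCA was found on either strand in the promoter window of 4 of the 7 members that fell (57.1%), Mmp3, Mmp10, Mmp13 and Mmp19, and in 3.33% of all tested promoters. This was counted and not tested. The windows of Mmp13 (chr9:7272264-7272513) and Mmp3 (chr9:7445572-7445821), both on the plus strand, are printed 5′ to 3′ as those with the smallest p among these 4, with the motif in capitals (as its reverse complement in Mmp13), beginning at positions -35 and -46 from the start.
Mmp13: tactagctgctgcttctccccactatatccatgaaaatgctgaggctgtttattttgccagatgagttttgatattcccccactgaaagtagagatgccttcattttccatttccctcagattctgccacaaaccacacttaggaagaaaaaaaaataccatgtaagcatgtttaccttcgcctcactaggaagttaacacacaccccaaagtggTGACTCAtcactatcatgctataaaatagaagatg
Mmp3: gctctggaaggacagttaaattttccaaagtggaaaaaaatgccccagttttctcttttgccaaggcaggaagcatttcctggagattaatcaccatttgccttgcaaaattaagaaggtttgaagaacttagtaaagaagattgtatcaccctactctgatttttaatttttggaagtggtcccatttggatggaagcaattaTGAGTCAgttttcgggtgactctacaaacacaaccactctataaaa

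Contractile genes, a classic mark of myofibroblasts, did not move as a group. Of 16 tested, 2 rose and 3 fell, with a median of -0.05 that lay between -0.13 and 0.06 when 1 library was left out. Acta2, smooth muscle actin, was the gene of highest count among those that were not called, at 1410, 1210 and 1170 CPM in control cells and 1230, 1690 and 1120 CPM with Repsox (log2 fold change 0.10, SE 0.143, adjusted p = 0.686). Tagln (adjusted p = 0.478), Cnn1 (adjusted p = 0.442) and Myh11 (adjusted p = 0.575) were not called either, but Cnn1 was without Repsox replicate 2 (log2 fold change -0.46, adjusted p = 0.0442), as was Des, desmin (-0.72, adjusted p = 0.00962). Without that library 1 member rose and 4 fell. Smtn, smoothelin, fell 1.42-fold, from 81.3, 85.9 and 86.9 CPM to 63.2, 56.1 and 59.4 CPM, and Acta1, skeletal actin, 1.91-fold. Lmod1, an actin nucleator, rose 1.47-fold. Actn1 and Cnn2 lost their calls without Repsox replicate 2 (adjusted p = 0.0763 and 0.0519) and without control replicates 2 or 3 (adjusted p = 0.0845 and 0.107 for Actn1, 0.0512 and 0.0504 for Cnn2).

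Genes of glycolysis and of the hypoxia response fell. Of 27 tested, 21 fell and 2 rose, with a median of -0.65. Pgam1, a glycolytic mutase, stood at 853, 891 and 840 CPM in control cells and at 414, 395 and 412 CPM with Repsox (log2 fold change -1.08, SE 0.0744, adjusted p = 1.67e-08). Hk2, the inducible hexokinase, fell 3.01-fold, Pkm, pyruvate kinase, 1.95-fold, and Ldha, lactate dehydrogenase, 1.53-fold, although Ldha was not called without control replicate 1 or Repsox replicates 1 or 3 (adjusted p from 0.0617 to 0.0689). Pdk1, which keeps pyruvate out of mitochondria, went from 188, 186 and 188 CPM to 82.7, 73.1 and 82.0 CPM. The lactate exporter Slc16a3, which overlaps Csnk1d on the opposite strand, fell 2.19-fold and the growth factor Vegfa 1.95-fold, from 152, 166 and 158 CPM to 85.2, 81.4 and 78.0 CPM. Adm and Ndrg1, which hypoxia also induces, went the other way, with Adm at 244, 233 and 241 CPM against 422, 565 and 426 CPM. All 6 libraries were labelled with the same oxygen level. Some cholesterol synthesis genes rose by small amounts. Of 24 tested, 8 rose, 1 fell and 15 were not called, with a median of 0.30, led by Insig1, the sterol sensor, from 38.9, 38.9 and 35.1 CPM to 63.6, 58.0 and 63.0 CPM, and by Idi1 and Sqle at 1.54-fold and 1.34-fold. The count of rises was 5 without control replicate 2 or 3, and Msmo1 and Pmvk lost their calls without Repsox replicate 2 (adjusted p = 0.09 and 0.216) or control replicates 2 or 3 (adjusted p from 0.0517 to 0.17), Pmvk also without Repsox replicate 1 (adjusted p = 0.0541). With a gene length covariate in the fit, 15 of the cholesterol genes rose and 1 fell, against 3240 rises and 3282 falls over all genes. The sterol regulatory element was found in the promoter window of none of the 8 that rose without this covariate and of 1.03% of all genes.

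Mitosis genes fell at low levels. Of 25 tested, 16 fell and none rose, with a median of -0.76. Top2a, the topoisomerase of dividing cells, stood at 32.7, 35.8 and 32.9 CPM in control cells and at 19.4, 11.7 and 13.8 CPM with Repsox (log2 fold change -1.17, SE 0.195, adjusted p = 2.55e-04). Mki67, the proliferation marker, went from 13.3, 17.3 and 18.9 CPM to 7.56, 1.56 and 6.07 CPM, with Repsox replicate 2 lowest. Cenpf, Tpx2 and Bub1b, which act at the spindle and the kinetochore, fell 4.66-fold, 2.06-fold and 2.39-fold. Without Repsox replicate 2, 11 of the 25 fell, and Kif11, Ccnb1, Ccna2, Bub1 and Plk1 were not called (adjusted p from 0.0689 to 0.154). Each of these 5 also lost its call without control replicate 1 or 3, Ccna2 without control replicate 2, Ccnb1, Ccna2 and Bub1 without Repsox replicate 3, and Plk1 without any 1 of the 6 libraries (adjusted p from 0.0543 to 0.211). Of 23 replication genes tested, 1 rose and 1 fell, 17 had a negative log2 fold change and the median was -0.18, or -0.11 without Repsox replicate 3, and their difference from the mitosis genes was not tested. With the length covariate 1 rose and 4 fell. Rrm1, a subunit of ribonucleotide reductase, rose 1.25-fold, though not when the 2 groups alone were fitted (adjusted p = 0.103) or without a filter on low counts (adjusted p = 0.0579), whereas Mcm2 of the replicative helicase had a log2 fold change of -0.41 and lost its call when any library but Repsox replicate 3 was left out (adjusted p from 0.0564 to 0.137). The p53 targets and Cdk inhibitors rose more often, with 10 rises and 2 falls among 23 tested and a median of 0.32. Cdkn1a, which encodes p21, went from 542, 533 and 539 CPM to 654, 685 and 677 CPM, a 1.25-fold rise (adjusted p = 0.00286), and Cdkn2b, which encodes p15, from 111, 94.9 and 104 CPM to 147, 213 and 144 CPM. Cdkn1c rose 3.56-fold, the stress regulator Sesn1 1.75-fold and the antiproliferative Btg2 1.48-fold. Gdf15 lost its call without Repsox replicate 2 (adjusted p = 0.0501). Plk2 was the steepest fall, from 137, 152 and 160 CPM to 64.8, 50.5 and 58.6 CPM, and Cdkn2a, a senescence marker, was not called, at 357, 291 and 302 CPM against 252, 532 and 255 CPM (adjusted p = 0.775).

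Most DNA repair genes were not called, which also holds for all genes, of which 25.2% were called, and the difference in share was not tested. Of 24 genes of nucleotide excision repair, the pathway in which ERCC1 cuts damaged DNA, 2 rose and 2 fell, with a median of 0.07 that was -0.06 without Repsox replicate 2 and 0.12 without control replicate 3. Rad23b, which helps to find damage, went from 222, 219 and 233 CPM to 169, 144 and 171 CPM (log2 fold change -0.48, SE 0.0895, adjusted p = 7.67e-04), and Gtf2h1, a subunit of TFIIH, fell 1.35-fold. Xab2, which overlaps Camsap3 on the opposite strand, rose 1.32-fold, a call lost when the 2 groups alone were fitted (adjusted p = 0.0562). Ercc4, which encodes XPF, the nuclease partner of ERCC1, was not called (log2 fold change 0.11, adjusted p = 0.492). Ercc5, which encodes the nuclease XPG of the same pathway, had a log2 fold change of 0.33 (adjusted p = 0.0283) and lost its call without any single library other than Repsox replicate 2 (adjusted p from 0.0562 to 0.109). Of 21 end joining genes, 3 fell and 1 rose. With the length covariate 7 fell and 2 rose, and of the excision repair genes 4 fell and 3 rose. That fit called 3240 rises and 3282 falls over all genes. Rbbp8, which starts the resection of broken ends, fell 1.63-fold, from 8.71, 11.0 and 8.24 CPM to 5.24, 5.93 and 5.93 CPM, Xrcc6, which encodes Ku70, 1.39-fold, although it overlaps Desi1, and Lig4 1.38-fold, the last not without a filter on low counts (adjusted p = 0.0713). Xrcc5, which encodes Ku80, was not called (adjusted p = 0.545). Xrcc1 rose 1.30-fold but was not called without Repsox replicate 2 (adjusted p = 0.0514) or control replicate 2 (adjusted p = 0.0622). Of 30 genes of homologous recombination and the Fanconi pathway, 3 rose and 2 fell, or 3 and 4 with the length covariate. Fancc rose 1.51-fold within a locus crowded by other transcripts, Fancf 1.64-fold, though not when the 2 groups alone were fitted (adjusted p = 0.0576), and Rad51b had a log2 fold change of 0.94 that lost its call without Repsox replicate 1 or control replicates 1 or 2 (adjusted p from 0.0509 to 0.135). Brca1, at 2.32, 2.41 and 3.49 CPM against 1.40, 0.547 and 1.41 CPM, lost its call without Repsox replicate 2 (adjusted p = 0.0502) or control replicate 3 (adjusted p = 0.0718), and Usp1, a deubiquitinase and the other member that fell (log2 fold change -0.24), was not called without any 1 of the 6 libraries (adjusted p from 0.0679 to 0.136).

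Secreted signals changed in both directions. Of 15 cytokines and growth factors of the senescence-associated secretory phenotype that could be tested, 6 fell and 3 rose. Cxcl12, a chemokine of stromal cells, stood at 193, 221 and 227 CPM in control cells and at 695, 678 and 750 CPM with Repsox, a 3.31-fold rise (adjusted p = 4.32e-10). Of the inflammatory chemokines 3 fell, with Cxcl5 from 328, 331 and 286 CPM to 83.1, 121 and 102 CPM and Ccl7 from 341, 294 and 266 CPM to 77.9, 153 and 83.9 CPM, and with Cxcl1 2.08-fold lower. The others tested were not called, with log2 fold changes of 0.20 for Ccl2 (adjusted p = 0.484), 1.40 for Ccl5 (adjusted p = 0.379), 1.53 for Cxcl10 (adjusted p = 0.387) and -0.65 for Ccl8 (adjusted p = 0.0925). Ccl8 was called lower without Repsox replicate 2 (-1.10, adjusted p = 0.00129). Hgf, a growth factor for epithelium, fell 2.24-fold and Nrg1, a ligand of ErbB receptors, rose 2.98-fold. Lif lost its call without Repsox replicates 2 or 3 or control replicates 2 or 3 (adjusted p from 0.0782 to 0.173). Il6 was below 0.5 CPM in every library and was not called (adjusted p = 0.564), and Il1a and Il1b had no counts in the 6 libraries. Complement genes rose, with 9 rises and 2 falls among 18 tested and a median of 0.94 that was 0.62 without Repsox replicate 3. Serping1, the C1 inhibitor, went from 86.6, 93.6 and 96.7 CPM to 321, 336 and 355 CPM, a 3.66-fold rise. The initiating proteases C1ra and C1s1 rose 2.45-fold and 2.54-fold and C4b, whose reads may be shared with near-identical copies, 6-fold. Masp1 of the lectin pathway fell 2.18-fold. C7 had 19 counts in control cells and none with Repsox, at least 7.81-fold lower against a floor of 3 counts over the group. Of 12 insulin-like growth factor genes, 3 rose and 1 fell, or 8 and 2 with the length covariate, which called 3240 rises and 3282 falls over all genes. Igfbp2, a binding protein, rose 7.27-fold, from 45.8, 55.5 and 43.8 CPM to 316, 492 and 248 CPM, and Igf2r, the clearance receptor, which overlaps Airn, went from 305, 430 and 437 CPM to 232, 93.9 and 224 CPM, a fall not called when the 2 groups alone were fitted (adjusted p = 0.066). The calls of Igfbp4 and Igf2 were lost without Repsox replicate 2 (adjusted p = 0.079 and 0.0659), that of Igfbp4 also without control replicates 2 or 3 (adjusted p = 0.0808 and 0.0568), that of Igf2 also without any control library (adjusted p from 0.0563 to 0.112), and 1 rise in this list remained without control replicate 2 or 3.

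Wnt and limb patterning genes rose. Of 22 Wnt ligands, antagonists and feedback genes tested, 12 rose and 3 fell, with a median of 0.85. Rspo2, which amplifies Wnt signaling, stood at 20.2, 20.5 and 20.2 CPM in control cells and at 174, 158 and 170 CPM with Repsox, an 8.24-fold rise (log2 fold change 3.04, SE 0.102, adjusted p = 4.58e-12). The ligand Wnt2 rose 6.78-fold, from 4.34, 3.13 and 4.37 CPM to 22.9, 31.7 and 25.8 CPM. The feedback inhibitor Nkd1 rose 4.90-fold, and Axin2, which Wnt signaling induces, went from 0.402, 0.564 and 0.437 CPM to 1.76, 0.631 and 1.66 CPM, a call lost without Repsox replicates 1 or 3 or control replicates 1 or 3 (adjusted p from 0.0603 to 0.0732). Notum, which inactivates Wnt ligands, had no count in control cells and 80 with Repsox, at least 20.6-fold higher against the same floor of 3 counts over the group. Wnt9a and Wnt11 fell 3.38-fold and 4.37-fold, and Sfrp4 lost its call without Repsox replicates 2 or 3 or control replicates 1 or 3 (adjusted p from 0.0743 to 0.117). Of 20 limb development genes tested, 15 rose and 1 fell, with a median of 0.84. Fgf10, the growth factor of the limb mesenchyme, went from 22.6, 26.7 and 28.0 CPM to 95.3, 78.1 and 102 CPM, a 3.56-fold rise, and the transcription factors Twist1 and En1 rose 2.07-fold and 1.80-fold. Hoxc10 and Hoxc11 rose 1.48-fold and 2.12-fold. Tbx3, the member that fell, lost its call without Repsox replicate 2 or control replicates 2 or 3 (adjusted p from 0.0665 to 0.128). Tbx2 lost its call without Repsox replicates 2 or 3 or control replicates 1 or 3 (adjusted p from 0.0691 to 0.112), and Hoxd10 without Repsox replicate 2 or control replicates 1 or 2 (adjusted p from 0.0872 to 0.0886). The remaining 8 of the 28 genes were too low to test.

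Genes of other fibroblast states rose. Of 12 genes known from quiescent and progenitor fibroblasts, 9 rose and 1 fell, with a median of 0.66. Clec3b, tetranectin, went from 14.1, 14.4 and 15 CPM to 113, 186 and 116 CPM, a 9.56-fold rise (SE 0.222 on the log2 scale, adjusted p = 1.45e-08). Penk, proenkephalin, rose 6.98-fold, and Cd34, a progenitor marker, 1.66-fold, from 90.5, 88.1 and 91.7 CPM to 159, 143 and 148 CPM. Dpp4 was near 0 in control cells, at 0.134, 0 and 0.125 CPM, and stood at 2.24, 1.26 and 1.63 CPM with Repsox. Thy1 fell 1.47-fold. Apod and Ly6a lost their calls without Repsox replicate 2 (adjusted p = 0.0674 and 0.168) or control replicates 2 or 3 (adjusted p from 0.0719 to 0.11), Apod also without control replicate 1 (adjusted p = 0.0649), and Ly6a and Ly6c1 belong to a cluster of similar genes. Of 8 adipocyte lineage genes tested, 4 rose and 1 fell. Pparg, the regulator of fat cell formation, went from 1.56, 2.00 and 1.06 CPM to 11.2, 11.1 and 9.18 CPM, a 6.71-fold rise, Cebpa rose 2.98-fold and Lpl 1.84-fold, whereas Dgat2 fell 2.18-fold. Adipoq, the product of mature fat cells, had no counts. Of 19 interferon-stimulated genes tested, 18 had a positive log2 fold change, with a median of 0.88, but 2 were called. Ifit2 rose 2.23-fold, from 13.5, 15.5 and 15.5 CPM to 32.8, 30.5 and 36.1 CPM, and Ifit3 lost its call without Repsox replicate 2 or any control library (adjusted p from 0.0529 to 0.0615).

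The label of these cells was checked against markers. Summed levels of markers are in CPM by library size alone, without TMM scaling, so they are not on the scale of the single genes. The TMM factors were 0.968, 0.956 and 0.937 in control cells and 1.04 in each Repsox library. Fibroblast markers were present in all 6 libraries, with a summed level between 64200 and 67200 CPM in control cells and between 37200 and 42700 CPM with Repsox. The collagen genes Col1a1 and Col1a2, which belong to this list, account for most of that sum. Of the 10 markers, 4 fell, Col1a1, Col1a2, Thy1 and Fap, and 2 rose, Dcn and S100a4, the latter not without Repsox replicate 2 or control replicates 2 or 3 (adjusted p from 0.0595 to 0.0912). All 4 markers of Schwann cells rose, among them Sox10 and S100b, with a summed level of 7.31 to 10.2 CPM in control cells and 21.5 to 25.2 CPM with Repsox. Their part in the other results was not tested. Leukocyte markers summed to 10.1 to 14.5 CPM and 17.5 to 30.9 CPM. Of the 4 tested, Lyz2 and Adgre1 rose, and neither was called without control replicate 2 or without Repsox replicate 3, whereas Ptprc, the defining marker, was too low to test at 17 counts or fewer in every library. Endothelial markers summed to 295 to 333 CPM and 251 to 407 CPM, with Tek and Emcn called higher among 5 and a median of 0, while Kdr (log2 fold change -0.53, adjusted p = 0.147), Cdh5 (-0.58, adjusted p = 0.179) and Pecam1 (0.00, adjusted p = 0.995) were not called. Pericyte markers summed to 74.4 to 99.7 CPM and 80.2 to 192 CPM, with Rgs5 and Notch3 called higher and Kcnj8 lower. Chondrocyte markers summed to 26.5 to 31.6 CPM and 5.90 to 9.81 CPM, and Sox9, the cartilage transcription factor, fell from 27.0, 32.6 and 33.3 CPM to 7.72, 5.59 and 9.29 CPM. Keratinocyte markers summed to 2.06 to 3.68 CPM and 1.44 to 3.37 CPM. The epidermal keratins Krt1 and Krt14 and Cdh1 had no counts, Krt5 had 10 counts in Repsox replicate 3 and at most 2 elsewhere, and of the pair tested neither Krt10 (log2 fold change -0.72, adjusted p = 0.0865) nor Trp63 (1.09, adjusted p = 0.164) was called, although Trp63 was without Repsox replicate 2 (1.46, adjusted p = 0.0376). Melanocyte markers summed to 1.25 to 1.76 CPM and 1.66 to 2.93 CPM, the single one tested was not called, and Dct and Tyr had 28 and 4 counts in Repsox replicate 2 and at most 1 count in any other library. None of the 5 skeletal muscle markers was high enough to test.

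Repsox was then set against Vactosertib, the pair of ALK5 inhibitors used at a matched dose and time, as a single pair. Both are kinase inhibitors with a methylpyridine group, which sits on a pyrazole core with a naphthyridine in Repsox and on an imidazole core with a triazolopyridine in Vactosertib. No gene was called different between them among 15164 (0% higher and 0% lower in edgeR, lowest adjusted p = 0.0913), while 215 genes were higher and 237 lower with Repsox at an unadjusted p under 0.05. With the length covariate, which was chosen after the data were seen, edgeR called 23 higher and 44 lower. DESeq2 called 5 higher and 3 lower. These 8 genes, named after their values were seen, were Cd24a, Gpc3, Sp5, Bmp4 and Esm1, which were higher, and Plod1, Sertad4 and Fibin, which were lower. Cd24a, a surface glycoprotein, stood at 21.2, 22.9 and 19.3 CPM with Repsox and at 12.1, 11.5 and 11.5 CPM with Vactosertib. The values of the groups did not overlap for Cd24a, and the DESeq2 log2 difference was 0.85 (adjusted p = 6.38e-08 in DESeq2 and 0.0913 in edgeR). Plod1 stood at 283, 219 and 283 CPM against 363, 376 and 351 CPM, and Bmp4 at 27.7, 24.3 and 25.5 CPM against 19.7, 16.9 and 15 CPM.

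A p-value above the threshold does not show that the compounds act alike, so the size of the difference is given by its 95% interval, which was not adjusted for the number of genes. The median distance from the estimate to an end of this interval was 0.41 on the log2 scale, and for 11951 genes (78.8%) the interval lay between -1 and 1. For the 131 genes chosen by the rule for named genes, 119 had an interval within these limits and 23 an interval that left out 0. Id4 differed by 0.38 (interval 0.16 to 0.60), Tgfbi by -0.32 (-0.57 to -0.06), Fbln2 by -0.44 (-0.77 to -0.10) and Mmp13 by -0.74 (-1.22 to -0.26). For Eln the difference was 0.05 (-0.27 to 0.37), for Smad6 0.02 (-0.20 to 0.25) and for Mmp3 0.00 (-0.37 to 0.37). The named genes were chosen by their change with Repsox, so their differences from Vactosertib are no even sample. By list, the median difference ran from -0.15 for collagen chains to 0.21 for BMP targets. No member of the 27 lists was called by edgeR without the length covariate, whereas DESeq2 called Bmp4 (adjusted p = 0.029) and Plod1 (adjusted p = 0.0274). The other inhibitors were used at 1 µM and are set beside these values without comparison. Mean Tgfbi was 16.6 CPM with Repsox, 20.7 with Vactosertib, 14.5 with A83-01, another ALK5 inhibitor, and 71.8 with DMH-1, an ALK2 inhibitor, and mean Id4 was 136, 105, 143 and 16.5 CPM in the same order.

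**Figure D5:**
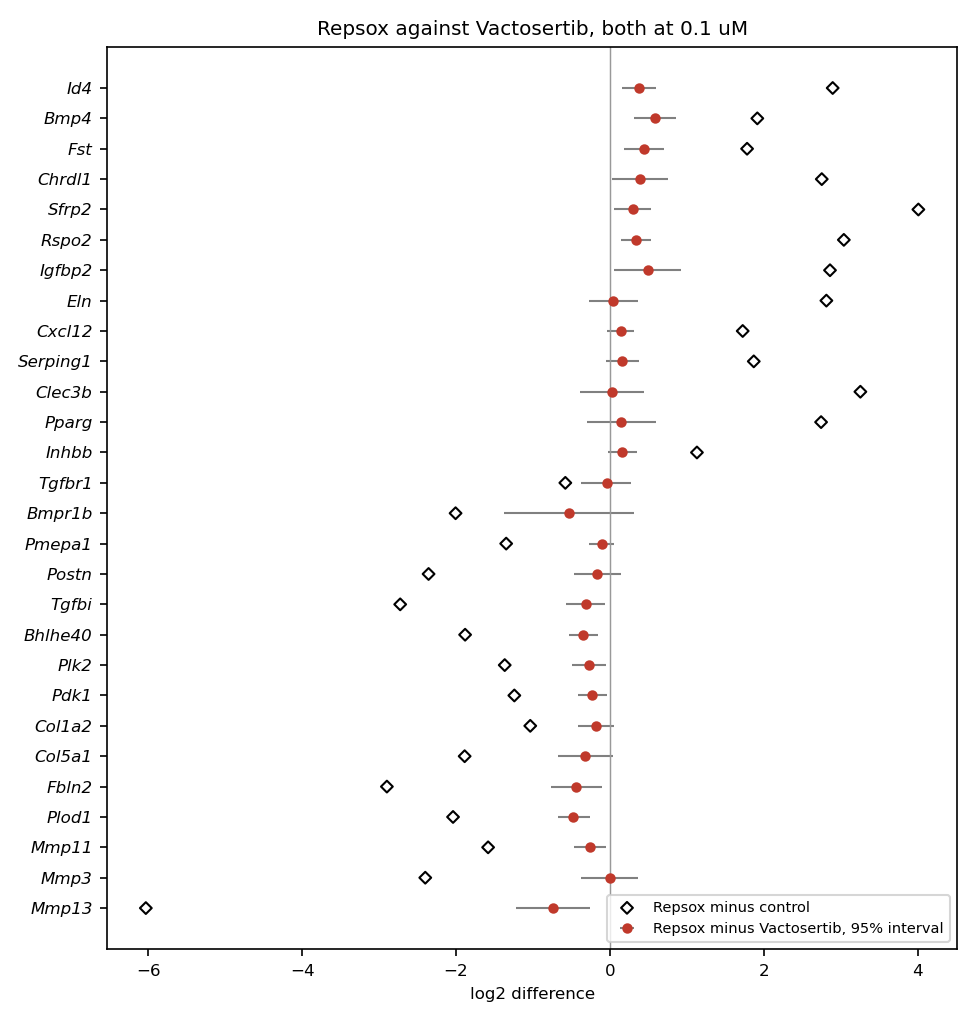
Log2 difference of Repsox minus Vactosertib with its unadjusted 95% interval (red points and bars) and log2 fold change of Repsox minus control (open diamonds) for 28 genes, named on the vertical axis. The differences from Vactosertib lie between -0.74 for Mmp13 and 0.59 for Bmp4, on an axis where Mmp13 lies at -6.03 against control.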

How the data were processed

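Raw counts per gene were deposited as a table of 24 fibroblast libraries. The authors made these counts from 150 bp paired-end reads of polyA RNA with FastQC, TrimGalore, alignment to GRCm39 by HISAT2 and featureCounts, and the versions, annotation release and strandedness are not given in the sources used here. Of 56980 gene identifiers, 56236 (98.7%) were found in GENCODE M39, which gave symbols and overlaps. The inhibitor doses come from a legend for the methylation samples. The 18 libraries of the described groups (6 groups of 3) entered a single fit in edgeR 4.0.16 (R 4.3.3) with TMM scaling, filterByExpr (minimum count 10, minimum total 15), a coefficient per group and the two-sided quasi-likelihood F-test. P-values were adjusted by Benjamini-Hochberg over all 15164 genes, and the common biological coefficient of variation was 0.168. On simulated data for Repsox against control (14696 genes), 96% of genes changed by a log2 of 1 and 100% of those changed by 2 were recovered. Changes were planted only in genes of higher counts, with the same coefficient of variation of 0.168 for every gene and library. The simulation left out the shift of Repsox replicate 2 by gene length. These shares therefore do not carry over to genes at low counts or to that shift. Whether replicate spread or depth limits precision was not tested.

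Named genes were Ercc1, the 8 largest rises and falls among called genes without overlap, of at least 5 CPM and not predicted (Gm, Rik), all receptors, and up to 4 members per list by p, 131 genes in all, and further list members are named where they illustrate a list or lost a call. Vactosertib was compared in the same fit. The members and lists were chosen with earlier results of these data known. Alternatives were DESeq2 1.42.0, its size factors, other filters, other sets of libraries, each library left out, and a gene length covariate chosen after the data were seen. The reprogramming table was not used here. Motif searches used GRCm39. Results for some genes are not reported here.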

Additional observations from a re-analysis of the deposited data

How the results depend on the processing

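None of the 116 called genes among the 131 chosen by the rule for named genes changed direction under the alternatives run, and directions of the other called genes were not compared. With the libraries of the 2 groups alone, 1181 genes rose and 1075 fell with Repsox, a fit with fewer samples, and a log2 fold change of at least 1 left 826 and 582. The gene length covariate, added after the data were seen, gave 3240 and 3282. Leaving out 1 library gave 1541 to 2090 rises and 1353 to 1799 falls. Against Vactosertib, DESeq2 called 5 and 3 genes and the length covariate 23 and 44, while every fit without 1 library called 0. The median of BMP targets was 1.27 and of glycolysis genes -0.76 with the length covariate. The median of BMP ligands and antagonists was 0.56 without a filter, 0.55 with at least 10 counts in every library, 0.75 with 2 groups and 0.77 with 24 libraries. That of limb genes was 0.78 with at least 10 counts or the length covariate and 0.76 with 2 groups, and that of adipocyte genes 0.69 without a filter, 0.68 with at least 10 counts and 0.66 with 2 groups. The median of cytokines was 0 without a filter, where more members at low counts enter. The causes of the other shifts were not tested.

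Leaving out 1 library moved the medians of BMP targets between 1.27 and 1.67, BMP ligands and antagonists between 0.66 and 0.95, cholesterol genes between 0.25 and 0.34, glycolysis genes between -0.82 and -0.62, nucleotide excision repair genes between -0.06 and 0.12, homologous recombination genes between -0.22 and 0.06, cytokines between -0.70 and -0.30, complement genes between 0.62 and 1.01, metalloproteinases between -0.39 and -0.11, receptors between -0.36 and -0.13, TGFb and activin ligands between 0.06 and 0.34, limb genes between 0.76 and 0.93 and adipocyte genes between 0.75 and 0.82. The medians of the 2 repair lists lay on both sides of 0. Of the 116, 19 lost the call under at least 1 alternative, and of all 278 called list members 59 lost it when at least 1 of the 6 libraries was left out. No paired analysis was possible because the labels give no replicate numbers, and those used here follow accession order. Depth was between 17102639 and 26706181 counts. Genes below the count filter, which was applied over all fitted libraries, were not tested. Some genes with few counts in these 6 libraries passed it, such as C7 with 19 counts in control cells.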

Other observations

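Several gene families outside the lists were counted by their symbols, a choice made after the results were seen. Of 30 Hox genes tested, 11 rose and 3 fell, and the genes that rose came from the HoxC, HoxD, HoxA and HoxB clusters while the 3 that fell, Hoxb4, Hoxb8 and Hoxb9, came from HoxB. Hoxc13, a regulator of nails and hair, went from 32.0, 28.1 and 29.6 CPM in control cells to 67.6, 57.7 and 61.4 CPM with Repsox, a 2.08-fold rise (adjusted p = 1.85e-06). Of 21 integrin subunits, 7 rose and 6 fell. Itga11, a collagen receptor of fibroblasts, went from 183, 281 and 289 CPM to 42.1, 16.9 and 43.2 CPM and Itga5, the fibronectin receptor, from 422, 452 and 474 CPM to 225, 158 and 210 CPM, whereas Itga8 rose 6.69-fold and Itga1, another collagen receptor, 2.13-fold. Of 14 fibroblast growth factors, 6 rose, among them Fgf10 and Fgf5, and Fgf21 fell.

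Of 20 semaphorins, 7 rose and 4 fell, and 5 of the rises were of class 3, the secreted guidance factors, led by Sema3f at 142, 147 and 149 CPM against 321, 257 and 328 CPM. Of 17 aminoacyl tRNA synthetases of the cytosol, 7 fell and none rose, at 1.21-fold to 1.45-fold, and of 23 amino acid carriers of the Slc1, Slc7 and Slc38 families 12 fell and 6 rose. Slc7a11, the cystine carrier, went from 13.2, 12.9 and 13.9 CPM to 7.16, 7.32 and 7.05 CPM. Dll4, a Notch ligand, fell 4.59-fold and Notch3 rose 2.87-fold. Of 46 potassium channel genes, 11 rose and 12 fell, so that the family had no common direction.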
